A study of Mus musculus with 6 samples.

Results

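The SWI/SNF chromatin remodelling subunits were followed in mouse hepatocytes as 10 genes taken by symbol from the count table, Smarca2, Smarca4, Arid1a, Arid1b, Arid2, Smarcc1, Smarcd1, Smarcd2, Smarcd3 and Actl6a. All 10 were found among the 53599 genes of the table, and all 10 passed the filter on low counts, as did 12691 genes in all. The rule takes genes by symbol and uses no measured value. The 10 genes were, however, chosen with earlier results of these data known, so their counts are not those of a blind choice. RNA-seq was carried out on hepatocytes enriched on Percoll after liberase digestion of the liver, 4 days after mice received adeno-associated virus of serotype 8 (AAV8), used to deliver a transgene to the liver in vivo. The empty vector group (EV, genotype WT in the labels, 3 libraries) received AAV8-TBG-Cre, and the Sox4 group (3 libraries) received AAV8-TBG-HA-Sox4-P2A-Cre, which encodes tagged mouse Sox4 ahead of the same Cre recombinase. Both vectors use TBG, a promoter active in hepatocytes. The study's methods describe Rosa-LSL-Cas9-EGFP mice on a C57BL/6J background, aged 4 to 8 weeks for exogenous expression, so Cre would switch on Cas9 and EGFP in both groups. Nothing in the labels says how the mice of a group were related, and p-values measure the spread between these libraries.

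SWI/SNF complexes (BAF in mammals) use the energy of ATP to slide or evict nucleosomes, and so govern access of transcription factors to enhancers and promoters. Each complex is built around one of a pair of mutually exclusive ATPases, Smarca4 (BRG1) or Smarca2 (BRM), on a scaffold of Smarcc and Smarcd proteins and, in most forms, Smarcb1 and Smarce1, with Actl6a in the ATPase module. The canonical BAF, PBAF and non-canonical BAF forms are told apart by further subunits, among them Arid1a or Arid1b in canonical BAF and Arid2 in PBAF. In the liver these complexes are known for roles in development, regeneration and tumour suppression.

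The 5′ flanks of both ATPase genes and both Smarcc scaffold genes are shown, chosen after their values were seen, because in each pair one gene rose by more than 2-fold with Sox4 and the other did not pass the test. Sequences are the 250 bases upstream of the annotated start, from RefSeq on GRCm38.p6, whereas the counts were made on GRCm39. Smarca4 is at chr9:21615919-21616168, Smarca2 at chr19:26604910-26605159, Smarcc1 at chr9:110131774-110132023 and Smarcc2 at chr10:128458986-128459235, all on the + strand. Capitals mark GGGCGG or its reverse complement CCGCCC (GC box, the letters bound by SP-type factors) and CAAAG or CTTTG (the core of SOX and HNF4A motifs).
Smarca4: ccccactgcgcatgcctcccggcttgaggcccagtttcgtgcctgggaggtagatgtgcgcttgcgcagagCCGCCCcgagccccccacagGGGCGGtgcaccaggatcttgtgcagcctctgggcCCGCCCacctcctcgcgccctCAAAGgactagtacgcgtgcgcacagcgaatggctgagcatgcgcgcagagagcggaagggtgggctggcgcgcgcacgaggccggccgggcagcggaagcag
Smarca2: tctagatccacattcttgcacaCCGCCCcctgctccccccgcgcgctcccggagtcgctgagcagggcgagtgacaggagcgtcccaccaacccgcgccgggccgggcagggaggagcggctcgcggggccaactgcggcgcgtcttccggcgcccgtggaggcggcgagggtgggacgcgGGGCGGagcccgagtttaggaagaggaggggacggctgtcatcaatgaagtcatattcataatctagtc
Smarcc1: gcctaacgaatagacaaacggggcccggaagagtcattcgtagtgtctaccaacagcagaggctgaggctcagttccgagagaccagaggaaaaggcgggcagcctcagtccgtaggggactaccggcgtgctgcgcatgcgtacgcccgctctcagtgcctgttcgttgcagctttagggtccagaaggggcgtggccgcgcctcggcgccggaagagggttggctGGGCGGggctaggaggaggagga
Smarcc2: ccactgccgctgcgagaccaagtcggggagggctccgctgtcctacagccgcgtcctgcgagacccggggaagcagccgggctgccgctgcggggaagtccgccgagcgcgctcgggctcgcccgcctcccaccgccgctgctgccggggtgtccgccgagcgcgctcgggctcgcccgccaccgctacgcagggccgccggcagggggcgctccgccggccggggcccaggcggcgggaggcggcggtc

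The Smarca4 flank held 3 GC boxes and 1 CAAAG, the Smarca2 flank held 2 GC boxes, the Smarcc1 flank held 1 and the flank of Smarcc2, which is a subunit outside the 10, held 0. RefSeq windows matched 9 of the 10 members by symbol, with 10 windows in all, since Arid1a had more than one start. The longer SOX letters ACAAAG, which contain CAAAG and were searched on both strands like all motifs here, were found in 0 of the 10 windows, against 16.5% of 32851 windows of the same length and 7.59% of the 8356 windows with at least 16 CpG. CAAAG was found in 1 window, against 48.6% of all windows and 30.7% of the CpG-rich ones. GGGCGG was found in 10 of 10, against 32.7% of all windows and 76.9% of the CpG-rich ones, and CCAAT in 0, against 33.8% and 30.8%. The median number of CpG was 26.5 in the members' windows and 6 over all windows. These are matches of letters in a short window and describe the sequence only.

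Of the 10 members, 9 rose in Sox4 hepatocytes, 0 fell, and Smarca2 did not pass the test. Over all genes tested, 29.0% were called higher and 26.0% lower (55.1% in either direction), by the quasi-likelihood test of edgeR at a Benjamini-Hochberg adjusted p under 0.05. No member was lower at an unadjusted p under 0.05, and 0 were called lower by DESeq2 or limma-voom. The members' median log2 fold change was 0.85 and that of all tested genes was 0.04, both on CPM, that is, counts scaled to a common library size after TMM correction for composition. Called members that rose at least 2-fold numbered 4 (Smarcc1, Smarcd3, Smarca4 and Actl6a), against 16.5% of all genes, and 8 members had every Sox4 library above every EV library, against 33.1%. In bulk RNA, fewer cells of a type and less RNA per cell cannot be told apart.

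**Figure D1:**
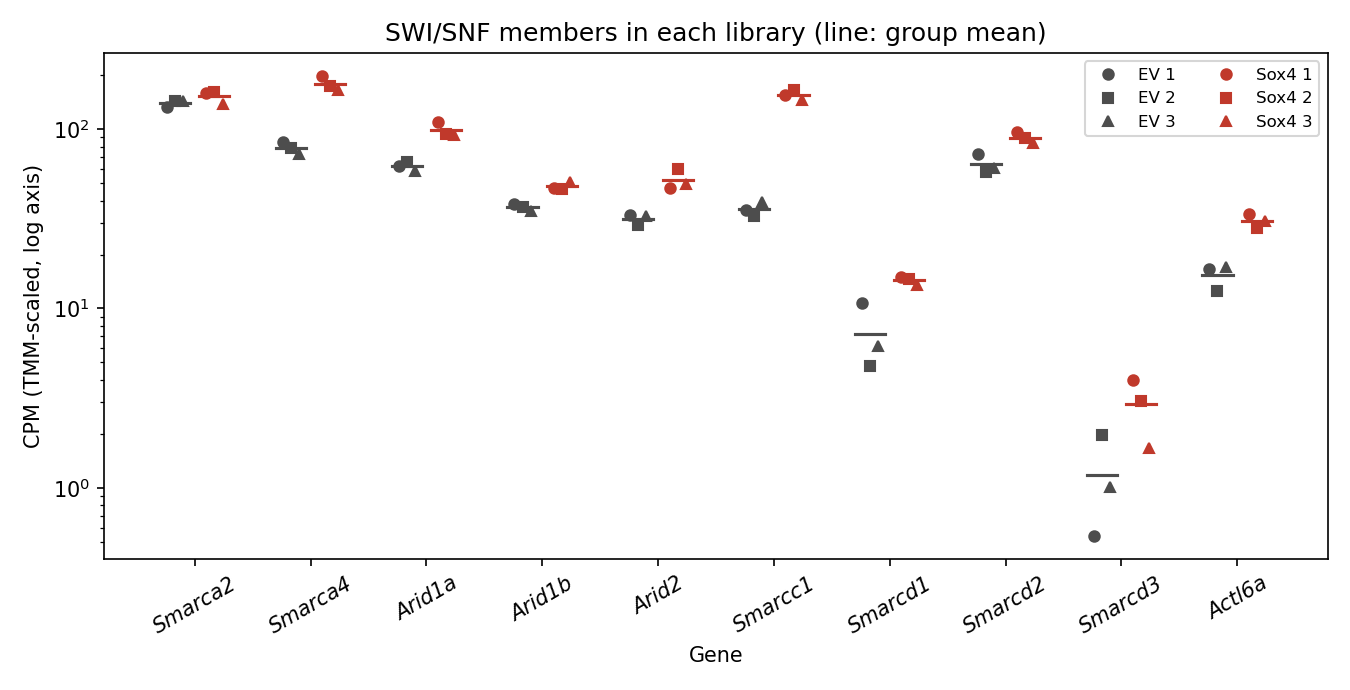
CPM (TMM-scaled, log axis) of each of the 10 members in each library, with EV in grey, Sox4 in red, point shape for replicate number and a line at the group mean. The 3 Sox4 points sit above the 3 EV points for 8 members, and the groups overlap for Smarca2 and Smarcd3.

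Total counts ran from 15090629 to 16964860 per library. Sox4, the delivered gene, had 2, 0 and 3 counts in the EV libraries and 21697, 15097 and 11816 in the Sox4 libraries, which fits the labels. The hepatocyte markers were abundant in all libraries (10 markers, with a summed level of 137700 to 163700 CPM in EV libraries against 94680 to 105100 with Sox4), and 8 of the 10 fell. Markers of other cells summed to far lower levels. Kupffer cell markers reached 11.5 to 24.3 CPM in EV and 25.8 to 61.1 in Sox4 (4 of 8 tested higher), stellate markers 8.55 to 45.5 and 82.3 to 139.7 (3 of 4 tested higher), and endothelial markers 16.9 to 28.6 and 15.5 to 37.5 (2 of 7 tested higher, 1 lower). The stellate sum was mostly Reln, with means of 22.4 CPM in EV and 98.1 CPM in Sox4. Cholangiocyte markers reached 27.5 to 43.7 and 71.5 to 84.7 CPM (2 of 4 tested higher), with Krt7 and Krt19 at 0 counts in every EV library and at 9 or fewer in each Sox4 library. Lymphoid and neutrophil markers summed to 0.771 to 2.28 and 1.40 to 4.29 CPM (the 1 tested did not pass), and the erythroid list to 93.0 to 126.2 and 4.97 to 15.5. That last sum was mostly Alas2 (1633, 1398 and 1274 counts in EV, 292, 215 and 81 in Sox4), the 1 gene of the list tested, which fell, and the 4 globin genes had at most 22 counts in any library. The part of these cells in the subunit changes was not tested. Kupffer and endothelial sums were lowest, within each group, in replicate 1. The stellate sum was lowest in EV replicate 1 and in Sox4 replicate 3.

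Smarca4, the BRG1 ATPase, had 84.8, 78.2 and 72.8 CPM in the EV libraries and 197.9, 173.0 and 166.1 CPM in the Sox4 libraries. The groups were well apart, and the lowest Sox4 library stood clear of the highest EV library. It rose 2.28-fold, with means of 78.6 ± 6.05 and 179.0 ± 16.7 CPM (SD, n = 3), a log2 fold change of 1.19 (SE 0.10) and an adjusted p of 3.29e-05. Over all 15 alternative settings the change ran from 1.11 to 1.66 and kept its call.

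Smarca2, the BRM ATPase and the alternative to Smarca4 in the complex, had 133.7, 142.8 and 143.7 CPM in EV and 159.8, 160.7 and 138.6 CPM in Sox4. The third Sox4 library lay inside the EV range. The log2 fold change was 0.13 (SE 0.08), from 140.1 ± 5.55 to 153.0 ± 12.5 CPM, and did not pass the test (adjusted p = 0.363). When libraries were scaled by their total counts alone the value was 0.60 with an adjusted p of 0.00122, a setting under which the median of all genes was 0.51.

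The largest change among the members was that of Smarcc1, a scaffold subunit on which the rest of the complex assembles. It had 35.2, 32.8 and 39.0 CPM in EV and 154.7, 166.4 and 145.7 CPM in Sox4. Every Sox4 library was far above every EV library, and the libraries of a group were close together. Its mean was 35.7 ± 3.12 CPM in EV and 155.6 ± 10.4 CPM in Sox4, a 4.36-fold rise (2.12 on the log2 scale, SE 0.09, adjusted p = 1.085e-06). Dhx30, whose exons overlap those of Smarcc1 on the opposite strand, rose by 0.74 on the log2 scale, and 3.29% of Smarcc1 50-base words occurred in another gene.

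Arid1a, a DNA-binding subunit of canonical BAF and a frequent target of mutation in cancer, had 62.6, 65.2 and 58.5 CPM in EV and 109.6, 94.5 and 92.2 CPM in Sox4. Its groups did not overlap, with the first Sox4 library the highest. It rose 1.59-fold (log2 fold change 0.67, SE 0.09, adjusted p = 0.000745).

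Arid1b takes the place of Arid1a in other canonical BAF complexes and had 38.2, 36.6 and 35.003 CPM in EV and 47.1, 46.5 and 50.5 CPM in Sox4. The groups did not overlap, and the libraries within each were close. Its rise was the smallest of the 9, at 1.31-fold (log2 fold change 0.39, SE 0.05, adjusted p = 0.00905).

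Arid2, the corresponding subunit of PBAF, had 33.2, 29.2 and 32.8 CPM in EV and 47.2, 59.7 and 49.6 CPM in Sox4. The second Sox4 library was the highest and the second EV library the lowest. It rose 1.64-fold (log2 fold change 0.72, SE 0.12, adjusted p = 0.000926).

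The 3 Smarcd genes encode alternative scaffold subunits that contact transcription factors, and they differed widely in level. Smarcd2, the most abundant of them, had 73.0, 57.4 and 60.3 CPM in EV and 95.9, 89.2 and 83.2 CPM in Sox4. No library of one group reached the other. It rose 1.41-fold (log2 fold change 0.49, SE 0.12, adjusted p = 0.00722).

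Smarcd1, also known for contacts with nuclear receptors in the liver, had 10.8, 4.78 and 6.17 CPM in EV and 14.9, 14.6 and 13.5 CPM in Sox4. The EV libraries were spread, the first being the highest, and the Sox4 libraries lay close together above them. It rose 1.98-fold (log2 fold change 0.98, SE 0.34, adjusted p = 0.0102), and 0.74 to 1.37 was the range of the log2 value when each library was left out in turn.

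Smarcd3, best known from heart and skeletal muscle, was the lowest of the members, with 7, 26 and 14 counts in EV and 80, 60 and 33 counts in Sox4. As CPM these were 0.539, 1.97 and 1.02 against 4.01, 3.06 and 1.67. The second EV library was above the third Sox4 library, so the groups overlapped. The rise of 1.30 on the log2 scale (SE 0.60) had an adjusted p of 0.0476. This call was lost with limma-voom (adjusted p = 0.0531) and without EV replicate 1 (0.95, adjusted p = 0.135), EV replicate 3 (1.19, 0.119), Sox4 replicate 1 (1.001, 0.138) or Sox4 replicate 2 (1.27, 0.107). Of its 50-base words, 44.0% occurred in another gene, most of all in Chpf2 on the opposite strand. Chpf2 itself had a log2 fold change of -0.28 (adjusted p = 0.114).

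Actl6a, an actin-related subunit of the ATPase module, had 16.6, 12.5 and 17.1 CPM in EV and 33.6, 28.2 and 30.9 CPM in Sox4. The groups did not overlap, and the second library was the lowest in each. It rose 2.01-fold (log2 fold change 1.01, SE 0.16, adjusted p = 0.000411). Of the 50-base words of Actl6a, 10.1% occurred in another gene, most of all in Mrpl47 on the opposite strand. Mrpl47 had a log2 fold change of 0.12 (adjusted p = 0.567). The neuronal counterpart of Actl6a, Actl6b, had 0 counts in all 6 libraries, which allows up to 0.231 CPM in EV and 0.153 CPM in Sox4 (3 counts per library, counting error only).

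The median spread between libraries was similar in both groups. The coefficient of variation of the members ran from 3.96% to 62.1% in EV (median 8.22%) and from 4.55% to 40.3% in Sox4 (median 8.45%), with Smarcd3 the most variable in both. Single members could differ, as did Smarcd1 (43.4% in EV, 4.94% in Sox4) and, the other way, Smarca2 (3.96% and 8.19%).

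**Figure D2:**
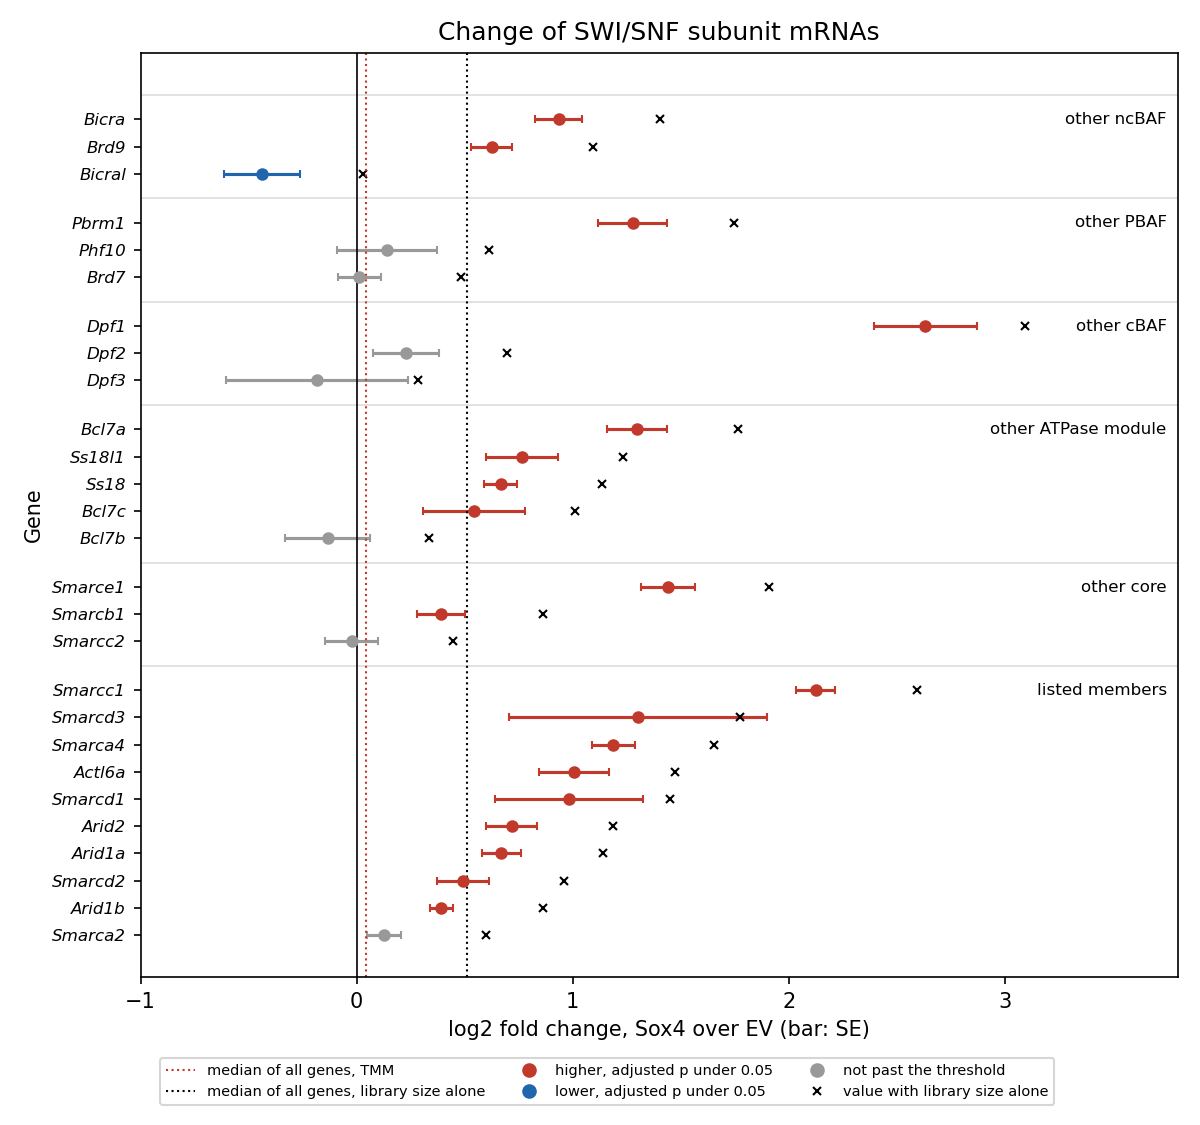
Log2 fold change of Sox4 over EV (edgeR, TMM scaling) for the 10 members and the 17 other SWI/SNF subunits tested, with bars for SE, colour for the call at an adjusted p of 0.05, and crosses for the value when libraries are scaled by total counts alone. Smarcc1 stands at 2.12 and Dpf1 at 2.63, while Smarca2 and Smarcc2 lie near 0 on the TMM scale and near the dotted all-gene median of 0.51 on the other.

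Because a ratio of 2 genes within a library does not depend on how libraries are scaled, 7 pairs of related subunits were compared in this way. With 3 libraries against 3 the smallest p that an exact permutation test can give is 0.1, so none of the pairs could pass a threshold of 0.05.

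For the ATPases, the ratio of Smarca2 to Smarca4 counts was 1.57, 1.82 and 1.97 in EV and 0.808, 0.929 and 0.834 in Sox4. These counts are not corrected for length, and the ratio was above 1 in every EV library and below 1 in every Sox4 library. The log2 ratio was 0.83 ± 0.17 in EV and -0.23 ± 0.11 in Sox4 (SD, n = 3), a difference of -1.06 (SE 0.11), with p = 0.1 by the exact two-sided permutation test and 0.175 adjusted over the 7 pairs.

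The Smarcc pair showed the largest shift. Smarcc2, the paralogue of Smarcc1, had 1429, 1500 and 1578 counts in EV and 2560, 2135 and 1892 in Sox4, and its log2 fold change of -0.02 (SE 0.12) did not pass the test (adjusted p = 0.890). The ratio of Smarcc2 to Smarcc1 counts was 3.12, 3.46 and 2.93 in EV and 0.829, 0.656 and 0.658 in Sox4. The groups were far apart, with the 3 Sox4 libraries all below 1. The log2 ratio differed by -2.16 (SE 0.13; exact permutation p = 0.1, adjusted 0.175).

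Among the remaining pairs the shifts were smaller. Arid1b to Arid1a shifted by -0.28 on the log2 scale (SE 0.11) and Smarcd2 to Smarcd1 by -0.55 (SE 0.24), both without overlap of the groups (exact permutation p = 0.1 for each, adjusted 0.175). In the latter the first EV library, at a ratio of 6.69, was close to the Sox4 libraries at 6.41, 6.09 and 6.11, while the other EV libraries were at 11.7 and 9.57. Arid2 to Arid1a differed by 0.04 (SE 0.19; exact permutation p = 0.9), Smarcd3 to Smarcd1 by 0.21 (SE 0.86; p = 0.8) and Smarcd3 to Smarcd2 by 0.75 (SE 0.64; p = 0.3). In these 3 pairs the groups overlapped.

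**Figure D3:**
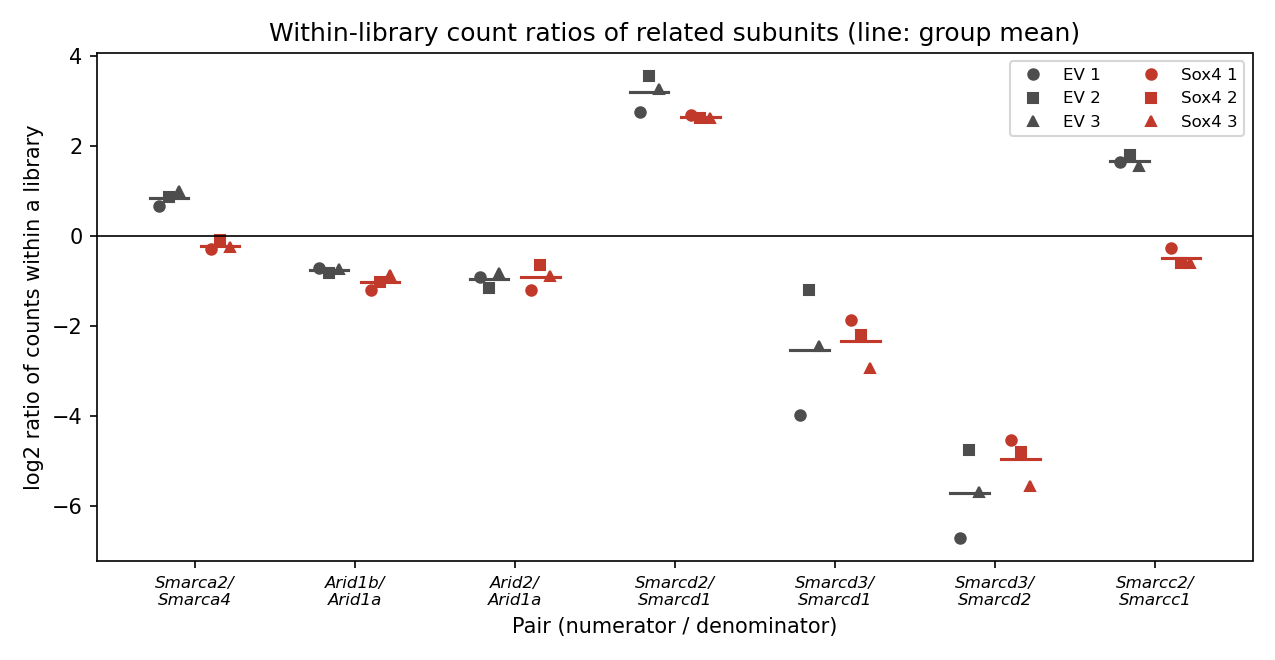
Log2 ratio of counts within each library for the 7 pairs of related subunits (numerator over denominator), EV in grey and Sox4 in red, with a line at the group mean. Smarca2/Smarca4 and Smarcc2/Smarcc1 lie above 0 in the 3 EV libraries and below 0 in the 3 Sox4 libraries.

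Levels of different genes were compared only after division by gene length, with length taken either as the union of all exons or as the longest coding transcript. Smarcc1 made up 18.3% ± 1.25 of the Smarcc level per kb in EV and 49.97% ± 3.36 in Sox4 by union of exons (20.0% and 52.7% by longest transcript). The rise of Smarcc1, from 4.55 ± 0.399 to 19.9 ± 1.32 CPM per kb, thus brought it to the level of Smarcc2, which was 20.3 ± 0.437 in EV and 20.0 ± 2.94 in Sox4. For the ATPases the order in EV depended on the length used. Smarca4 was 55.3% ± 2.82 of the ATPase level per kb in EV by union of exons and 34.3% ± 2.60 by longest transcript, because the annotated exons of Smarca2 add up to 14.3 kb and its longest coding transcript to 5.92 kb. In Sox4 the share was 72.0% ± 1.48 and 52.1% ± 1.83, higher than in EV in every library with either length.

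**Figure D4:**
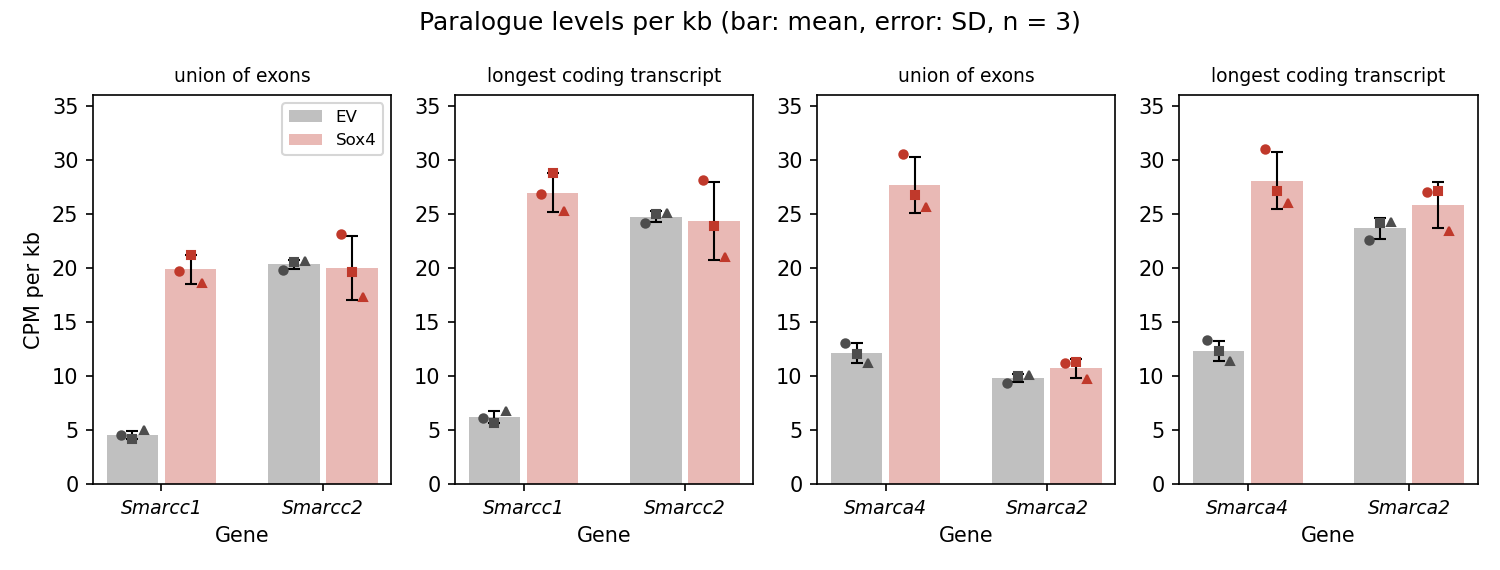
CPM per kb of the Smarcc and ATPase pairs with each of the length definitions, as mean (bar), SD (error bar, n = 3) and single libraries (circle, square and triangle for replicates 1, 2 and 3). Smarcc1 goes from well below Smarcc2 in EV to about its level in Sox4, and Smarca2 is below Smarca4 in EV by union of exons and above it by longest transcript.

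By union of exons, the members in EV ran from Smarcd2 (17.7 CPM per kb) through Smarca4 (12.1), Smarca2 (9.82), Arid1a (5.41), Smarcc1 (4.55), Actl6a (3.96), Arid2 (2.95), Arid1b (2.90) and Smarcd1 (1.80) to Smarcd3 (0.230). Neighbours in this order were separate in every library, except Smarcc1 with Actl6a and Arid2 with Arid1b. In Sox4 the order was Smarca4 (27.6), Smarcd2 (24.9), Smarcc1 (19.9), Smarca2 (10.7), Arid1a (8.61), Actl6a (7.96), Arid2 (4.86), Arid1b (3.81), Smarcd1 (3.56) and Smarcd3 (0.570). Here Smarca4 overlapped with Smarcd2, Arid1a with Actl6a, and Arid1b with Smarcd1. Within the Smarcd family, Smarcd2 held 89.9% ± 1.68 of the level per kb in EV and 85.8% ± 0.410 in Sox4, and Smarcd3 held 1.24% ± 0.882 and 1.93% ± 0.656. Within the Arid genes, Arid1a held 48.0% ± 1.98 and 49.8% ± 3.72, Arid1b 25.8% ± 0.380 and 22.1% ± 1.71, and Arid2 26.2% ± 2.00 and 28.1% ± 3.49. All 3 Arid genes rose, and the share of Arid1b was lower in every Sox4 library than in every EV library. The order of the members depended on the length used. By longest coding transcript Smarca2 (23.66 CPM per kb) came first in EV, overlapping with Smarcd2 (23.15), and Actl6a (7.656) came next after Smarca4 (12.33). In Sox4, Smarcd2 (32.56), Smarca4 (28.07), Smarcc1 (26.95) and Smarca2 (25.84) came first, each overlapping with the next.

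The other known subunits of the complex were mixed. Of 20 listed, 17 were tested, 10 rose (58.8%), 1 fell and 6 did not pass, with a median log2 fold change of 0.54. Over all tested genes, 29.0% were called higher and 26.0% lower. In the core, Smarce1, an HMG-box subunit, rose 2.71-fold (29.8 ± 2.30 to 80.7 ± 9.92 CPM, adjusted p = 1.43e-05). Of its 50-base words, 15.006% occurred in another gene, most of all in the pseudogene Gm8494, which had at most 19 counts in any library. Smarcb1, the tumour suppressor subunit that anchors the complex to the nucleosome, rose 1.31-fold (adjusted p = 0.033), a call lost in 5 of the 6 fits that left out 1 library (all but that without Sox4 replicate 3; adjusted p up to 0.131).

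In the ATPase module, 4 of 5 tested rose, against 29.0% of all tested genes called higher. Bcl7a had 159, 152 and 138 counts in EV and 638, 513 and 492 in Sox4 and rose 2.46-fold (adjusted p = 8.09e-05). Ss18, the fusion partner in synovial sarcoma, rose 1.59-fold (adjusted p = 0.000611) and its relative Ss18l1 1.70-fold (adjusted p = 0.00587). Bcl7c rose 1.46-fold with an adjusted p of 0.0494, a call lost in 6 of 15 alternatives (DESeq2, limma-voom, the deposited normalized values, and the fits that left out EV 2, EV 3 or Sox4 1), and Bcl7b was at -0.13 (adjusted p = 0.585).

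Of the canonical BAF subunits, the PHD-finger gene Dpf1, mainly known from neurons, had the largest change of any subunit tested. It had 5, 4 and 3 counts in EV and 31, 35 and 47 in Sox4 (means of 0.302 ± 0.0837 and 1.91 ± 0.427 CPM), a change of 2.63 on the log2 scale (SE 0.24, adjusted p = 0.000766). Its level remained low, and the widely expressed Dpf2 was at 0.23 (adjusted p = 0.205) and Dpf3 at -0.18 (adjusted p = 0.761). Of the PBAF subunits, Pbrm1, which carries several bromodomains, rose 2.43-fold, from 50.3 ± 5.31 to 122.1 ± 19.4 CPM (adjusted p = 5.92e-05), and Brd7 and Phf10 were at 0.01 and 0.14 (adjusted p = 0.935 and 0.558). Of the non-canonical subunits, Brd9 rose 1.54-fold (adjusted p = 0.00388) and Bicra 1.91-fold (adjusted p = 0.000769). Bicral, the paralogue of Bicra, was the 1 subunit called lower, at -0.44 (SE 0.18, adjusted p = 0.0490), and the call was lost in 13 of 15 alternatives (all but RLE scaling and the fit without EV replicate 2), with a value of 0.03 when libraries were scaled by total counts alone. The lymphoid and neuronal subunits Bcl11a and Bcl11b had 0 counts in every EV library, and in Sox4 Bcl11a had 3, 11 and 2 counts and Bcl11b at most 1.

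For the other ATP-dependent remodeller families, chosen lists of subunits were counted, with Actl6a, which INO80, SRCAP and TIP60 complexes also contain, left among the SWI/SNF members. Of the ISWI list, a family that spaces nucleosomes, 6 of 10 tested rose and 1 fell (median log2 fold change 0.62), from Baz1a at 1.61 (adjusted p = 0.000114) to Chrac1 at -0.78 (adjusted p = 0.00357). Of the CHD and NuRD list, which holds CHD remodellers and the subunits of the NuRD deacetylase complex, 12 of 19 rose and 3 fell (median 0.45). Hdac2, a deacetylase of NuRD, had 25.6 ± 0.697 CPM in EV and 110.5 ± 4.32 CPM in Sox4, 2.11 higher on the log2 scale (adjusted p = 5.90e-07), near that of Smarcc1. The other deacetylase of the list, Hdac1, rose by 0.63 on the log2 scale (adjusted p = 0.00127), and the methyl-CpG binding gene Mbd2 fell by 0.98 (adjusted p = 5.07e-05). Of the INO80, SRCAP and TIP60 subunits, which exchange histone variants, 4 of 26 rose and the other 22 did not pass (median 0.16), led by Vps72 at 1.47 (adjusted p = 0.000411). The shares called higher were 60% for ISWI, 63.2% for CHD and NuRD and 15.4% for INO80, SRCAP and TIP60. Over all tested genes, 29.0% were called higher and 26.0% lower. Whether the lists differ from one another was not tested.

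**Figure D5:**
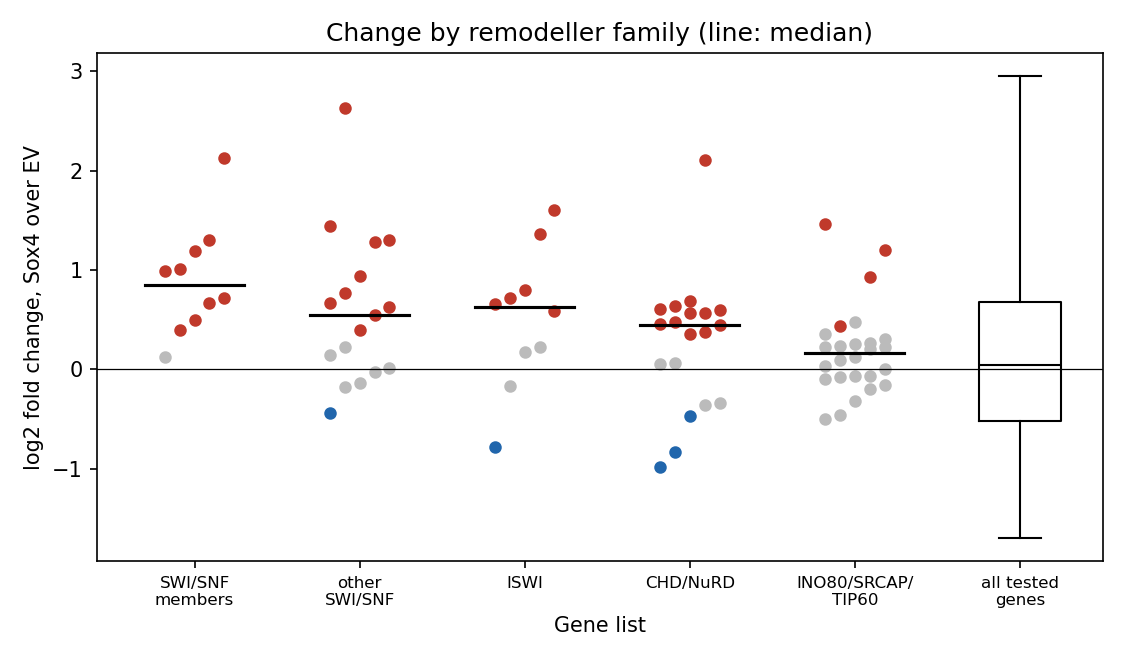
Log2 fold change of Sox4 over EV for each tested gene of 5 remodeller lists (red, called higher; blue, called lower; grey, not past the threshold; line, list median), beside a box for all 12691 tested genes (box, quartiles and median; whiskers, 5th and 95th percentiles). The list medians are 0.85 for the members, 0.54 for the other SWI/SNF subunits, 0.62 for ISWI, 0.45 for CHD and NuRD and 0.16 for INO80, SRCAP and TIP60, and the median of all genes is 0.04.

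The scaling of the libraries set the level against which these changes are read. TMM gave the Sox4 libraries an effective size 1.485 times that of EV, while their total counts were 1.072 times as large. With total counts alone, all 10 members were called higher (median log2 fold change 1.32), as were 14 of the 17 other subunits tested. Under that setting 51% of all tested genes were called higher, against 29% with TMM, and the median of all genes was 0.51. Of the calls over all genes, 79.9% were higher instead of 52.7%. The within-library ratios do not depend on this choice.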

How the data were processed

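RNA-seq libraries of mouse hepatocytes (3 EV, 3 Sox4) were grouped by their labels. Per the submitters' processing notes, the authors aligned reads with STAR 2.7.10b to GRCm39, counted them per gene with featureCounts 2.0.1 and deposited raw counts. The deposited normalized signal is these counts divided by DESeq2 median-of-ratios size factors, which recomputed factors equalled. Annotation release, strand setting and treatment of multi-mapping reads are not given in the sources used here, so overlapping genes are uncertain.

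Sox4 and EV counts were compared by edgeR 4.0.16 in R 4.3.3 (filterByExpr, minimum count 10 and minimum total 15; TMM; robust quasi-likelihood F test, no covariate). Adjusted p-values are Benjamini-Hochberg values over all 12691 genes tested, threshold 0.05, by edgeR unless another tool is named. Each SE belongs to the difference in mean log2 CPM (prior count 2, also used in the ratios). DESeq2 1.42.0, limma 3.58.1 (voom, and a log2 fit of the deposited signal) and other scalings and filters were alternatives, and the code was tested on simulated data. Lengths and 50-base words shared between genes come from GENCODE M21 (GRCm38), promoter windows from RefSeq. No 2 libraries were duplicates (chi-square per degree of freedom 17.6 to 62.7 within groups). The 10 members and the gene lists were chosen with earlier results of these data known. Named genes were all members, called or undetected other subunits, the called gene of largest change in each direction of the other families, and, named after their values were seen, the other subunits that did not pass, Hdac1, Alas2 and genes overlapping a subunit. SD and SE were computed from the values of the libraries. The CPM limits given for Actl6b cover counting error only and treat reads as separate molecules, which PCR copies are not.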

Additional observations from a re-analysis of the deposited data

How the results depend on the processing

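Over the 15 alternatives the members called higher numbered 8 to 10 and those called lower 0. The share of all tested genes called higher ran from 18.1% (no filter, 24036 genes tested) to 51% (total counts alone). Of 149 member values, 143 kept their direction and call, 5 (all Smarcd3) lost the call and 1 (Smarca2, total counts alone) gained it. With total counts alone, 6468 genes were higher and 1624 lower, the other remodeller families had 41 calls (39 higher, 2 lower), and Smarcc2 was at 0.45, Bcl7b at 0.34, Dpf3 at 0.28 and Bicral at 0.031, that is, turned in sign. Smarcc2 was also above 0 with upper-quartile scaling (0.030), no filter (0.018) and a mean count of at least 50 (0.0037). Bicral was the 1 other subunit called lower, and the count became 0 with total counts alone, upper-quartile scaling, no filter, a mean count of at least 50, the replicate block, DESeq2, limma-voom and the deposited normalized values. The cause was not tested.

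The titles give a replicate number but do not say whether libraries with the same number were prepared together. Correlations of their deviations were 0.27, -0.09 and 0.13 for replicates 1, 2 and 3. Of the 3, only replicate 1 was closest to its own number. With the replicate block 7362 genes were called, 6853 of them shared with the 6990 called without it, 9 members rose and 0 fell, and 10 other subunits rose and 0 fell.

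With each library left out in turn, calls ran from 6027 to 7269, members called from 8 to 9, other subunits called lower from 0 to 1, and other remodellers called lower from 4 to 7 (7 without Sox4 replicate 1). The log2 values ran from -0.14 to 0.076 for Smarcc2, -0.33 to 0.021 for Bcl7b, -0.62 to 0.10 for Dpf3, -0.074 to 0.057 for Brd7 and -0.0052 to 0.31 for Phf10, and the log2 ratio differences from -0.51 to 0.87 for Smarcd3/Smarcd1 and from -0.087 to 0.19 for Arid2/Arid1a. A fit with a mean count of at least 50 left no value for Smarcd3, Dpf1 and Dpf3. The lowest counts behind a subunit call were those of Smarcd3 (7 to 80) and Dpf1 (3 to 47).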
